A study of Homo sapiens with 2 samples.

Results

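The genes described here are 10 protein-coding genes that carry nutrient and stress signals to mTORC1, most of them by holding it back: the sestrins SESN1, SESN2 and SESN3, the inhibitor gene DDIT4, the GATOR1 subunit genes DEPDC5, NPRL2 and NPRL3, the tuberous sclerosis complex genes TSC1 and TSC2, and RHEB, the gene of the GTPase on which that complex acts. They were chosen by symbol among the 58735 genes of the deposited table, and all 10 were found there, each in 1 row. RNA was sequenced from SH-SY5Y, a human cell line derived from a neuroblastoma, in 1 library of control cells and 1 library of cells kept for 24 h with TDCPP, a chlorinated organophosphate flame retardant, together with titanium dioxide (TiO2) nanoparticles. Both libraries came from the same line grown in serum-containing medium, and the labels give no dose, no vehicle, and no library with either agent alone. The treatment field and the exposure protocol are worded alike for both libraries, so which one is the control rests on their titles and genotype fields. Without replicates, no difference below could be set against a spread between cultures. Intervals cover the counting error of the reads only, and in bulk RNA a change in the cells present and a change in RNA per cell cannot be told apart.

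mTORC1 is a protein kinase complex at the lysosome that turns on protein synthesis and turns off autophagy when amino acids, energy and growth factors are plentiful. Amino acids act through the Rag GTPases, which GATOR1 switches off. The sestrins keep GATOR1 active by binding its opponent GATOR2, and leucine releases SESN2 from GATOR2. Growth factors and stress act through the TSC complex, which switches off RHEB, the direct activator of mTORC1, and DDIT4 acts upstream of that complex. Sestrin and DDIT4 genes are known to be switched on at the level of transcription by stress factors, among them ATF4, FOXO factors and HIF1A. These statements are background, and no protein, phosphorylation or mTORC1 activity was measured.

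The libraries held 16471438 reads in the control and 15315572 in the exposed sample, recovered from the deposited FPKM (read fragments divided by gene length and by library size). Of 9 noradrenergic neuroblastoma markers, 3 reached a mean FPKM of 1, GATA3, ISL1 and HAND2. Their FPKM ratios of exposed to control, with 95% counting intervals in parentheses, were 0.805 (0.680 to 0.952), 0.584 (0.414 to 0.817) and 0.812 (0.552 to 1.19), the last with an interval that includes 1, and all 3 log2 ratios lay below the median of the measured genes. HAND2, at 1.13 FPKM in the control and 0.916 in the exposed library, passed the mean FPKM of 1 only through the control. Its place among the measured genes was thus tied to its higher value there. The part of the 3 markers in the ratios of the 10 genes was not tested. PHOX2A and TH had 0 reads in both libraries, and the other 4 had at most 10 reads in a library. A count of 0 allows up to 3 reads, which is 0.182 RPM (reads scaled to the library total) in the control and 0.196 RPM in the exposed library. Most of the defining markers of the labelled line were thus absent or near 0, and the label SH-SY5Y is used as given.

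Among the 10 genes, DDIT4 and SESN2 were several-fold higher in the exposed library, SESN1 was moderately higher and SESN3 was lower. The GATOR1 subunit genes, TSC1, TSC2 and RHEB all lay within a factor of 1.5 of the control. Because SESN2 and SESN3 lay on opposite sides of the control, the make-up of the sestrin messages differed between the libraries. Promoter windows of the genes with the highest and the lowest ratios are shown first, followed by the window of TSC2, the only 1 of the 10 genes with a match to the ATF4 with C/EBP element.

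The windows are RefSeq promoters of GRCh38.p14, 5′ to 3′ on the strand of the gene, with 250 bases before and 50 bases after each annotated start, and all 10 genes had at least 1 such window. SESN2 is shown from chr1:28259268-28259567 on the plus strand, DDIT4 from chr10:72273674-72273973 on the plus strand, SESN3 from chr11:95232426-95232725 on the minus strand and TSC2 from chr16:2047735-2048034 on the plus strand. Capitals mark matches to the motifs searched.
SESN2: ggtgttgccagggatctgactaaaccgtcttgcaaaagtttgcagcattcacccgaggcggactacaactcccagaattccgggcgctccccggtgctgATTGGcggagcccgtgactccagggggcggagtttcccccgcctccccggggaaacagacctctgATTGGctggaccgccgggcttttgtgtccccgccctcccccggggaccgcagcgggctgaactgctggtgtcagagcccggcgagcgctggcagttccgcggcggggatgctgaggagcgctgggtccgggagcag
DDIT4: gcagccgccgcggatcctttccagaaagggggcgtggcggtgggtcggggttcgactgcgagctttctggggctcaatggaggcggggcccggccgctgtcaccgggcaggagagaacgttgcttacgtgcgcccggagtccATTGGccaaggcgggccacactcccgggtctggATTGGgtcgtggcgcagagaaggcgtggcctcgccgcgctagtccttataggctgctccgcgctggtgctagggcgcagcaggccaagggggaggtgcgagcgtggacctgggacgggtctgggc
SESN3: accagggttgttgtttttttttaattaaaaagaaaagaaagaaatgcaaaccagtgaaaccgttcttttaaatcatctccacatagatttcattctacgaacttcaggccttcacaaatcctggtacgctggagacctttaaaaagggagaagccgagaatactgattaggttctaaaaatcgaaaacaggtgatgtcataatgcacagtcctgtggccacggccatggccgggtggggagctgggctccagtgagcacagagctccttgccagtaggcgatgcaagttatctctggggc
TSC2: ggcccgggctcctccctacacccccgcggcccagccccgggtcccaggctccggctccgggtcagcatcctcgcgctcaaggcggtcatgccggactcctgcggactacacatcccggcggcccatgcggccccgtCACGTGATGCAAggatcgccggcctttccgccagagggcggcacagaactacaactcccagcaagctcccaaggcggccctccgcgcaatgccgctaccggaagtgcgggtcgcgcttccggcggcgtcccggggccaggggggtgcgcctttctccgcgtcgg

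Motifs were searched as letters on both strands, and a match is a description of the sequence and not evidence of binding. The ATF4 with C/EBP element, TGATGNAA, was found in the shown TSC2 window at position -110, counting the first of the last 50 bases as 0, and in no window of the other genes. It occurred in 3.62% of the 35116 promoter windows of the same length. The E-box, CACGTG, was found in the same TSC2 window at -114, where it shares letters with the ATF4 element, and in the NPRL3 window at 25, against 7.26% of all windows. The cyclic AMP response core, TGACGT, was found in the RHEB window only (7.98% of all windows) and the FOXO element, GTAAACA, in none (3.42%). The CCAAT box, chosen after the windows had been read, occurred 2 times in SESN2, at -151 and -86, and 2 times in DDIT4, at -108 and -75, all 4 read as ATTGG on the strand shown. NPRL2 and RHEB also held 2 each, so 4 of the 15 windows of the 10 genes had 2 or more, against 10.8% of all windows, and these included genes with ratios near 1. The GC content of the windows was 67% for SESN2, 69.7% for DDIT4, 73% for the TSC2 window and 45% for SESN3. Elements outside these windows were not searched.

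The expression difference was the log2 ratio, log2((exposed FPKM + 1)/(control FPKM + 1)), which understates differences of low genes, and ratios printed with an interval are FPKM ratios without the added 1. Of the 10 genes, 9 reached a mean FPKM of 1 and are counted among the 11409 measured protein-coding genes, and DEPDC5 did not. At 2-fold, 2 of the 9 were higher, against 0.657% of the measured genes, and 0 of the 9 were lower, against 0.131%. The 2 higher genes also passed 3-fold, which 0.219% of the measured genes did. At 1.5-fold, 2 of the 9 were higher (2.53% of the measured genes) and 1 was lower (2.16%). Of the 9 genes, 7 lay above the median log2 ratio of the measured genes, as 50% do by construction. The median of the 9 was 0.16, beside -0.05 for the measured genes. The 10 genes were chosen with earlier results of these data known, so these counts are a description and not a test.

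**Figure D1:**
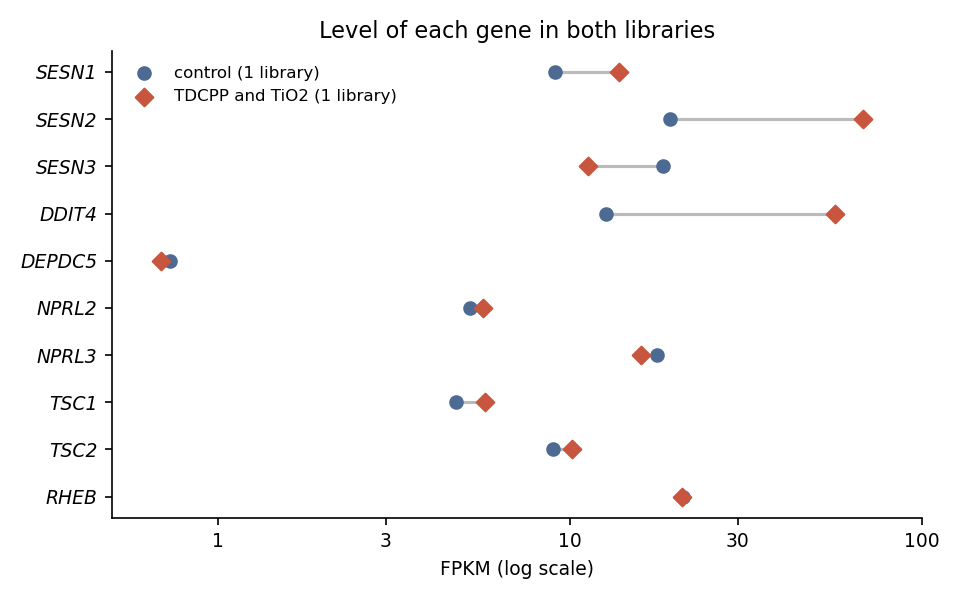
Level of each of the 10 genes in FPKM on a log axis, with the control library as circles and the exposed library as diamonds, joined by a line. The exposed values of SESN2 (68.3 FPKM) and DDIT4 (56.7 FPKM) lie to the right of every other point, and SESN3 moves to the left.

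DDIT4 encodes REDD1, a small stress-induced protein that restrains mTORC1 through the TSC complex (ENSG00000168209, GRCh38 chromosome 10, 72273920 to 72276036, plus strand). Its level was 12.7 FPKM in the control (417 reads) and 56.7 FPKM after exposure (1841 reads). The ratio was 4.48 (95% counting interval 4.02 to 4.99), the highest of the 10 genes. Only 11 measured genes had a higher log2 ratio than its 2.08. The antisense gene DDIT4-AS1 lies wholly within DDIT4 exons on the opposite strand, over 847 bases, and had 0 reads in both libraries. How reads in shared exons were assigned is not given, so this 0 does not show that the antisense RNA was absent. The DDIT4 paralogue DDIT4L, which encodes REDD2, was barely detected, with 48 and 40 reads.

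SESN2, whose product is the leucine-binding member of the sestrin family (ENSG00000130766, chromosome 1, 28259527 to 28282491, plus strand), stood at 19.3 and 68.3 FPKM, from 1067 and 3718 reads. The ratio was 3.53 (3.30 to 3.79), and 17 measured genes had a higher log2 ratio. SESN1, a paralogue of SESN2 (ENSG00000080546, chromosome 6, 108986437 to 109094819, minus strand), stood at 9.09 and 13.8 FPKM. Its 745 and 1111 reads gave a ratio of 1.51 (1.38 to 1.66), and its log2 ratio of 0.55 lay above 97.1% of the measured genes but inside their middle 95%, which ran from -0.56 to 0.59. Under the 5 other scalings the log2 ratio of SESN1 lay between 0.58 and 0.66, past 1.5-fold in 4 of them. SESN3, a sestrin gene known as a FOXO target (ENSG00000149212, chromosome 11, 95165513 to 95232541, minus strand), went the other way, from 18.4 to 11.2 FPKM. Its 3110 and 1874 reads gave a ratio of 0.611 (0.577 to 0.648), and 142 measured genes had a lower log2 ratio than its -0.66. SESN3 was no longer 1.5-fold lower with FPKM scaled to equal sums (-0.55), with libraries scaled to total reads (-0.58) or with an added 5 (-0.53).

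**Figure D2:**
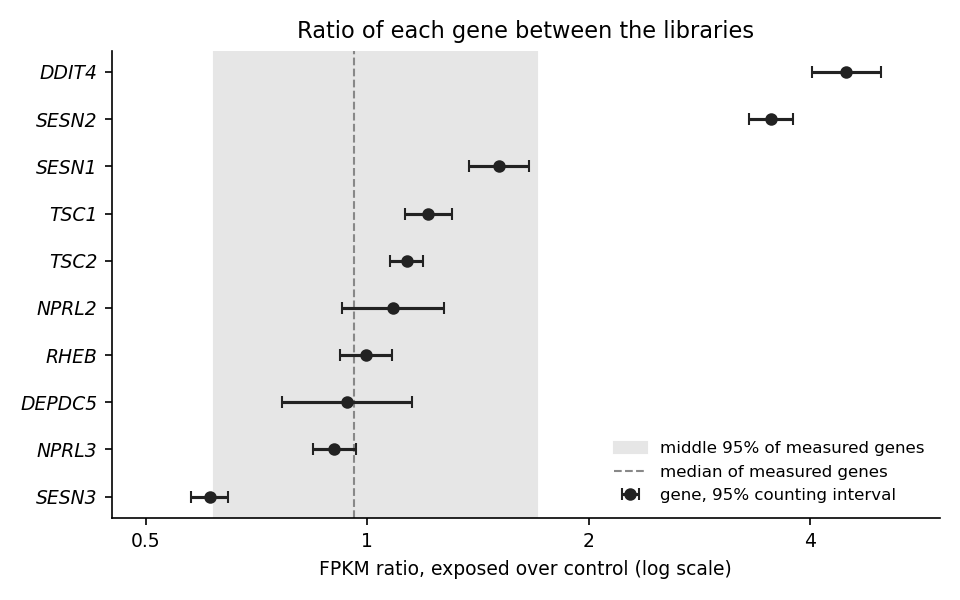
FPKM ratio of exposed over control for each gene on a log axis, with 95% counting intervals, beside the middle 95% (grey band, 0.619 to 1.70) and the median (dashed line) of the measured genes. DDIT4 and SESN2 lie above the band, SESN3 just below its lower edge at 0.611, and the other 7 genes inside it.

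The summed FPKM of the sestrin genes was 46.8 in the control and 93.3 in the exposed library, a ratio of 1.99. In the control, SESN2 held 41.3% of this sum, SESN3 39.3% and SESN1 19.4%. In the exposed library SESN2 held 73.2%, SESN1 14.7% and SESN3 12.05%. The SESN2 and SESN3 genes were therefore near each other in level in the control and far apart after exposure. A ratio of genes within a library does not depend on how the libraries were scaled. SESN2 over SESN3 went from 1.05 to 6.07, and the quotient of these ratios was 5.78 (95% counting interval 5.29 to 6.33). SESN2 over SESN1 went from 2.12 to 4.96, with a quotient of 2.34 (2.08 to 2.63). SESN1 over SESN3 went from 0.495 to 1.22, with a quotient of 2.47 (2.22 to 2.76), so their order was opposite in the 2 libraries. DDIT4 over SESN2 went from 0.656 to 0.831, a quotient of 1.27 (1.12 to 1.44).

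**Figure D3:**
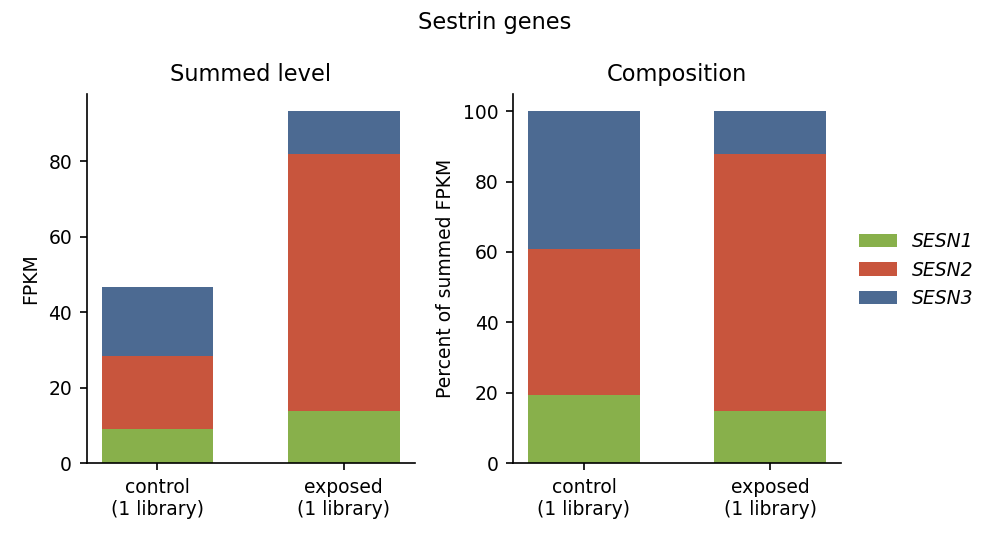
Summed FPKM of SESN1, SESN2 and SESN3 (left) and the percent of that sum held by each gene (right) in the control and the exposed library, 1 library each. The SESN2 segment grows from 41.3% to 73.2% of the sum and the SESN3 segment shrinks from 39.3% to 12.05%.

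The shares depend on the gene length used, because the deposited length merges all annotated exons of a gene. As shares of undivided reads, SESN2 held 21.7% (Wilson 95% interval 20.5% to 22.9%) of sestrin reads in the control and 55.5% (54.3% to 56.7%) in the exposed library, and SESN3 held 63.2% (61.8% to 64.5%) and 28.0% (26.9% to 29.04%). Per length of the longest annotated coding transcript, SESN2 held 36.5% and 67.7% of the sum. SESN2 gained and SESN3 lost share under each of these measures, whereas the share of SESN1 was lower after exposure per length and not by reads, at 15.1% (14.2% to 16.2%) and 16.6% (15.7% to 17.5%).

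GATOR1 is the complex that inactivates RRAGA and RRAGB, and its genes differed little. DEPDC5, which encodes a subunit mutated in familial focal epilepsy (ENSG00000100150, chromosome 22, 31753867 to 31908033, plus strand), stood at 0.732 and 0.688 FPKM from 203 and 188 reads. The ratio was 0.939 (0.766 to 1.15), so a difference was not detectable at this depth. Its low FPKM comes with a merged exon length of 17331 bases, beside 6479 bases for its longest coding transcript, per which it stood at 1.96 and 1.84. NPRL2 (ENSG00000114388, chromosome 3, 50347330 to 50351091, minus strand) had 307 reads (5.22 FPKM) in the control and 328 (5.66 FPKM) after exposure, a ratio of 1.08 (0.925 to 1.27). NPRL3 (ENSG00000103148, chromosome 16, 84271 to 138860, minus strand) had 1873 reads (17.7 FPKM) and 1666 reads (15.99 FPKM), a ratio of 0.902 (0.844 to 0.964). The NPRL3 interval left out 1, yet the log2 ratio of -0.14 lay in the middle of the measured genes, above 35.98% of them. Within GATOR1, NPRL3 over NPRL2 went from 3.39 to 2.83, a quotient of 0.833 (0.700 to 0.989).

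TSC1 and TSC2 encode hamartin and tuberin, the scaffold and the RHEB-inactivating subunit of the TSC complex. TSC1 (ENSG00000165699, chromosome 9, 132891348 to 132946874, minus strand) had 1337 control reads (4.75 FPKM) and 1597 (5.75 FPKM) after exposure, with a ratio of 1.21 (1.13 to 1.30). TSC2 (ENSG00000103197, chromosome 16, 2047465 to 2089487, plus strand) had 2805 reads (8.93 FPKM) and 3130 reads (10.1 FPKM), with a ratio of 1.13 (1.08 to 1.19). Both were slightly higher in the exposed library, and their own ratio, TSC2 over TSC1, was 1.88 and 1.76, a quotient of 0.934 (0.854 to 1.02). RHEB (ENSG00000106615, chromosome 7, 151466012 to 151520120, minus strand) was nearly level, with 1185 reads (20.95 FPKM) and 1165 reads (20.9 FPKM) and a ratio of 0.997 (0.919 to 1.08). A processed pseudogene, RHEBP2, had 197 and 209 reads that could belong to RHEB, and with these added the ratio was 1.01 (0.935 to 1.09). RHEB over TSC2 went from 2.35 to 2.07, a quotient of 0.881 (0.800 to 0.971).

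Per length, the order of the levels differed between the libraries. In the control it ran from RHEB at 20.95 FPKM through SESN2, SESN3, NPRL3, DDIT4, SESN1, TSC2, NPRL2 and TSC1 to DEPDC5. The counting intervals of neighbours overlapped for RHEB and SESN2, SESN2 and SESN3, SESN3 and NPRL3, SESN1 and TSC2, and NPRL2 and TSC1. In the exposed library it ran from SESN2 at 68.3 FPKM through DDIT4, RHEB, NPRL3, SESN1, SESN3, TSC2, TSC1 and NPRL2 to DEPDC5, with overlap for TSC1 and NPRL2 only. DDIT4 over RHEB went from 0.604 to 2.71, and SESN2 over RHEB from 0.922 to 3.27. Merged exons exceeded the longest coding transcript most for TSC2, 19626 against 6344 bases, and per that transcript TSC2 took rank 3 rather than 7 in the control and NPRL3 rank 1 rather than 4. SESN2 and DDIT4 kept ranks 1 and 2 in the exposed library under both lengths. Per longest coding transcript they were close, at 68.3 and 66.8, and whether their counting intervals overlapped under that length was not tested.

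Strand use in counting is not stated, so a read in an exon shared with a gene on the opposite strand could belong to either gene. TSC2 shares 778 exon bases with PKD1, which stood at 7.84 and 9.53 FPKM, and 402 with NTHL1 at 9.65 and 8.48 FPKM. NPRL2 shares 397 bases with CYB561D2 at 5.39 and 4.74 FPKM, and NPRL3 shares 453 with MPG at 18.4 and 18.7 FPKM. SESN1, SESN3 and TSC1 share 363, 93 and 349 bases with AL390208.1, AP000787.1 and GFI1B, which had at most 7, 32 and 4 reads in a library. The other 12 overlapping genes shared no exon or had no reads, with at most 14 reads in a library. Among them Z82190.2, on the same strand as DEPDC5, shares 1809 of its 1914 bases with DEPDC5 exons and had 0 reads. Reads there would be shared even if strand was used, so this 0 does not show how the DEPDC5 count was affected. The part of shared reads in the ratios of TSC2, NPRL2, NPRL3, DDIT4 and DEPDC5 was not tested.

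The rest of the mTORC1 pathway was read from 10 lists of 74 genes, of which 68 were measured. These lists too were chosen with earlier results of these data known, so their counts are a description and not a test. Of these 68, 1 was at least 2-fold higher (0.657% of all measured genes) and 0 at least 2-fold lower (0.131%). These counts use the log2 ratio with its added 1. By FPKM ratio, RHEBL1 at 2.86 (1.62 to 5.31) and CASTOR2 at 0.479 (0.345 to 0.658) were also past 2-fold, with intervals that reach below it. At 1.5-fold 4 of the 68 were higher (2.53% of all measured genes) and 1 lower (2.16%), and the other 63 lay within that range. RHEBL1, 1 of these 4, passed the mean FPKM of 1 only through the exposed library. Its place in this count was thus tied to its higher value there. The median log2 ratio of the 68 was -0.01, against -0.05 over the measured genes.

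The partners of the sestrins and of GATOR1 were among these. All 5 GATOR2 genes, whose complex the sestrins bind, lay between -0.20 (SEH1L) and 0.10 (WDR24) in log2 ratio. The 3 listed genes of KICSTOR, which anchors GATOR1 at the lysosome, lay between 0.05 and 0.20, with ITFG2 highest at 0.20 and C12orf66 at 0.11. Among other amino acid sensors, LARS, the leucyl-tRNA synthetase gene, stood at 0.23 and SLC38A9, the lysosomal arginine sensor, at 0.18. CASTOR2, a relative of the arginine sensor CASTOR1, was the 1 gene at least 1.5-fold lower, from 5.73 to 2.74 FPKM, a ratio of 0.479 (0.345 to 0.658) from 125 and 59 reads. CASTOR3 is a related gene on the same chromosome with 250 and 182 reads, and the genes together had a ratio of 0.652 (0.552 to 0.768), so the value of CASTOR2 alone is uncertain. With an added 5 in place of 1, CASTOR2 stood at -0.47. CASTOR1 had 10 and 3 reads.

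The Rag GTPases and Ragulator genes, the platform on which mTORC1 docks, had a median of -0.04 over 9 genes, with none at 1.5-fold. RRAGD was the highest at 1.54-fold (1.36 to 1.75) by FPKM and 0.54 in log2 ratio, past 1.5-fold under 4 of 5 other scalings, and RRAGC followed at 0.28, whereas RRAGA stood at -0.13 and RRAGB at 0.07. FLCN and FNIP1, which form a complex that acts on RRAGC and RRAGD, stood at 1.43-fold (1.26 to 1.61) and 1.40-fold (1.28 to 1.54), and FNIP2 at a log2 ratio of -0.01. FNIP2 changed sign under all 5 other scalings. RRAGC, RRAGD, FLCN and FNIP1 were higher under all of them.

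The kinase complexes themselves had a median of -0.13 over 7 measured genes. MTOR, the kinase, went from 16.5 to 13.8 FPKM, a ratio of 0.835 (0.793 to 0.879). Its log2 ratio of -0.24 lay above 21.4% of the measured genes, inside their middle 95%. PRR5, an mTORC2 subunit gene, stood at -0.22 in log2 ratio. MLST8 was the highest of the 7, at a ratio of 1.10 (1.05 to 1.16), and the others had log2 ratios below 0. RPTOR, the scaffold of mTORC1, stood at -0.01, with a sign that changed under all 5 other scalings. DEPTOR and PRR5L were not measured. Among the TSC partners, RHEBL1, the RHEB paralogue, went from 0.824 to 2.36 FPKM, a ratio of 2.86 (1.62 to 5.31) from 17 and 48 reads, and its log2 ratio of 0.88 was 1.41 with an added 0.1 and 0.34 with an added 5. RHEBL1 passed the mean FPKM of 1 only through the exposed library, so its place among the measured genes was tied to its higher value there. TBC1D7, the remaining TSC subunit gene, stood at -0.09, with the opposite sign when FPKM were scaled to equal sums.

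Inputs to the TSC complex held 1 gene past 1.5-fold. None of the 10 listed insulin and PI3K genes reached 1.5-fold, and their median was -0.04, with PIK3R1 at -0.19 and AKT1 at -0.16. Of 9 genes of the AMP-activated kinase and its upstream kinase, PRKAB2, a regulatory beta subunit gene, was 1.73-fold higher (1.60 to 1.88), from 10.8 to 18.8 FPKM. PRKAB1, the other beta subunit gene, stood at 0.38 in log2 ratio, while the catalytic subunit genes PRKAA1 and PRKAA2 stood at -0.26 and -0.03, the latter with the opposite sign under 4 of 5 other scalings.

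Of 16 measured substrates and effectors of mTORC1, EIF4EBP1 and GRB10 were at least 1.5-fold higher and none was 1.5-fold lower. EIF4EBP1, which encodes the translation repressor 4E-BP1, went from 58.7 to 149 FPKM, a ratio of 2.54 (2.36 to 2.73) from 1008 and 2522 reads. Its paralogue EIF4EBP2 stood at a log2 ratio of -0.12, and EIF4E, the cap-binding protein gene that both repressors bind, at -0.22. GRB10, a substrate that dampens insulin signalling, went from 10.1 to 16.8 FPKM, a ratio of 1.66 (1.56 to 1.76), and passed 1.5-fold in log2 ratio except with an added 5 (0.53). The ribosomal S6 kinase genes RPS6KB1 and RPS6KB2 stood at -0.09 and -0.02, and ULK1, the autophagy kinase gene, at -0.07. The sign of RPS6KB2 changed under all 5 other scalings, that of ULK1 under 2 of them, and those of EIF4EBP2 and RPS6KB1 when FPKM were scaled to equal sums.

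**Figure D4:**
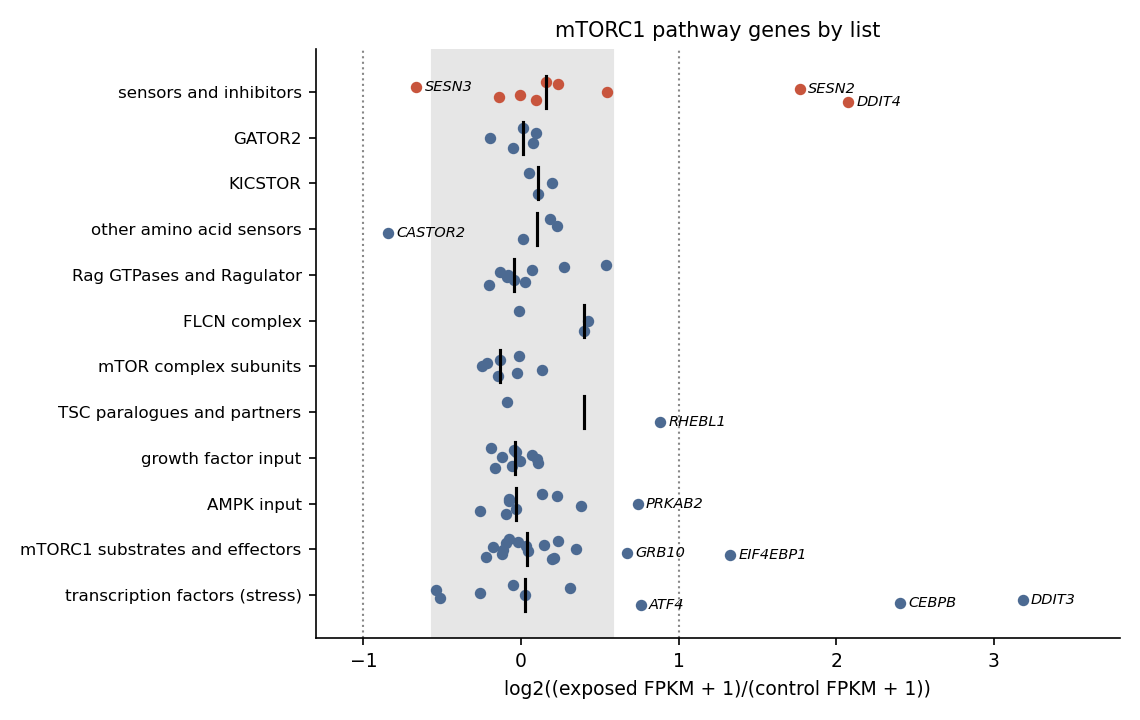
Log2 ratio of every measured gene in the sensors and inhibitors (9 genes, red) and in each pathway list (blue), with the list median as a bar, the middle 95% of measured genes as a grey band and dotted lines at 2-fold. SESN2 and DDIT4 lie beyond the right dotted line, as do EIF4EBP1, CEBPB and DDIT3, and most other points lie in the band.

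A further list, not among the 10 pathway lists and their 68 measured genes, held 10 transcription factor genes known for sestrin and DDIT4 promoters, of which 9 were measured. Of these 9, 3 were at least 1.5-fold higher (2.53% of all measured genes), 2 of them at least 2-fold (0.657%), and 0 were 1.5-fold lower (2.16%). The list was chosen with earlier results of these data known, so these counts are a description and not a test. ATF4 was 1.70-fold higher (1.64 to 1.76), CEBPB 5.71-fold (5.08 to 6.43) and DDIT3, which encodes CHOP, 10.4-fold (8.68 to 12.6). NFE2L2, the gene of NRF2, stood at 0.31 in log2 ratio. FOXO1 went from 14.4 to 9.81 FPKM, a ratio of 0.680 (0.626 to 0.738). It shared the direction of SESN3 and was opposite in direction to SESN1, SESN2 and DDIT4. FOXO4 stood at -0.26 and FOXO3 at 0.02. HIF1A went from 24.8 to 16.7 FPKM, a ratio of 0.674 (0.629 to 0.723), opposite in direction to DDIT4. The log2 ratios of FOXO1 (-0.51) and HIF1A (-0.54) both lay inside the middle 95% of the measured genes. TP73 stood at -0.05, with the opposite sign under 3 of 5 other scalings, and TP63 had 0 and 1 reads. DDIT3 shares 355 exon bases with MARS on the opposite strand, which had 4581 and 6773 reads. It also shares 58 with MBD6 on the opposite strand, which had 1039 and 1320 reads. CEBPB shares 231 with CEBPB-AS1 on the opposite strand, which had 26 and 37 reads. The part of shared reads in the ratios of DDIT3 and CEBPB was not tested. Whether any of these factors acted on the sestrin genes or DDIT4 was not tested.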

How the data were processed

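RNA sequencing of 1 control and 1 exposed library was analysed from 1 deposited table. The authors deposited FPKM per gene, with aligner and counter not given in the sources used here. Per the submitters' processing notes the builds were GRCm38 and mm10, both of mouse, whereas all 58735 genes carry the symbol, start and end of human GENCODE release 29, so coordinates are on GRCh38. FPKM multiplied by gene length and by 1 constant per library, estimated from the smallest values, gave whole reads within 0.001 for 100% of values above 0 in each library. The library totals behind the FPKM were 0.971 and 1.03 times the summed reads, so the deposited values were already scaled between libraries and were used as they are.

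Measured genes were protein-coding with a mean FPKM of at least 1. With 1 library per group no test was run. Ratios carry exact conditional binomial 95% intervals, levels exact Poisson intervals, and quotients of ratios conditional odds ratio intervals (scipy 1.17.1, Python 3.11.15). Reads carry no molecular identifiers, so these cover counting error only and compare libraries, not conditions. The calculation was checked on simulated reads.

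The members, lists and fold rules were chosen with earlier results of these data known. Genes named were all 10 members, the genes with reads that share exon bases with them, and all listed transcription factors. In each list the genes past 1.5-fold and the 2 largest log2 ratios in absolute size were named. Others were named after their values were seen. Some genes of these pathways are not reported here and were taken out of the lists and their counts. The CCAAT box and the transcript-length measure were also added then. Protein sequences were not used here.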

Additional observations from a re-analysis of the deposited data

How the results depend on the processing

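Under 7 alternatives for each of the 10 genes (pseudocounts of 0.1 and 5 and 5 other scalings), 60 of 70 log2 ratios stayed within the counting error of the gene and 10 lay outside it. With a pseudocount of 5 these were SESN2 at 1.59, DDIT4 at 1.80, SESN1 at 0.41 and SESN3 at -0.53. With FPKM scaled to equal sums, which shifted the measured genes' median by 0.11, they were SESN2 at 1.89, SESN3 at -0.55, TSC2 at 0.27, NPRL3 at -0.023 and RHEB at 0.11, and with libraries scaled to total reads TSC2 at 0.24. RHEB changed sign under all 5 scalings and DEPDC5 with FPKM scaled to equal sums (0.01), and the other 8 genes kept their direction. The count of members at least 2-fold higher stayed at 2 under these, at both filters and at 1.5-fold and 3-fold, and the count lower was 1 (SESN3) at 1.5-fold and 0 elsewhere. Over all measured genes the counts higher and lower were 132 and 54 with a pseudocount of 0.1, 38 and 1 with 5, 289 and 247 at 1.5-fold, 25 and 0 at 3-fold, and 47 higher at a mean FPKM of at least 5, beside 75 and 15. As shares of sestrin reads SESN1 held 15.1% and 16.6% in the control and exposed library, SESN2 21.7% and 55.5% and SESN3 63.2% and 28.0%. Per longest coding transcript SESN1 held 25.1% and 19.9% and SESN2 36.5% and 67.7%. No paired analysis was possible because each group has 1 library, and for the same reason no library could be left out.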
